A study of Mus musculus with 12 samples.

Results

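Nuclear genes of oxidative phosphorylation were followed in mouse Hepa1 hepatoma cells and primary mouse embryonic fibroblasts (MEFs) kept in medium from ferroptotic or control cells. The genes were taken by name: every protein-coding gene whose GENCODE M21 symbol begins with Nduf, Uqcr, Atp5, or Cox and a digit. This gave 99 gene identifiers with 98 symbols among the 55487 genes of the count table. By their known roles, 36 encode subunits of complex I, 8 of complex III, 19 of complex IV and 17 of complex V, and 19 are assembly or other factors. Atp5o is listed under 2 identifiers that overlap, and the second had 0 reads in every library, as did Cox8c.

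Oxidative phosphorylation takes place in the inner mitochondrial membrane. Complex I (NADH dehydrogenase), complex III (cytochrome bc1) and complex IV (cytochrome c oxidase) pass electrons to oxygen and pump protons, and complex V (ATP synthase) makes ATP from the proton gradient. Most subunits are encoded in the nucleus and a few in mitochondrial DNA, so the complexes are built from both sources, with the help of assembly factors that are not part of the finished enzyme. Complex II, which pumps no protons, is encoded by Sdh genes that the naming rule does not take.

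There were 4 groups of 3 RNA-seq libraries. Hepa1 cells, labelled wild type, received medium from ferroptotic or from control immortalised MEFs, and primary MEFs labelled Bach1-/- received the same media. The donor cells of the ferroptotic medium were immortalised MEFs in which Bach1, a transcription factor that represses heme, iron and glutathione genes, had been re-expressed. Cells that die by ferroptosis do so through iron-driven oxidation of membrane lipids. The medium contained 10% serum and was conditioned over 48 h. It was renewed every day during 4 days of culture, and every group, controls included, also received 0.4 mg/mL vitamin E and 0.1 mM 2-mercaptoethanol. Since the cell line is wild type and the primary cells are Bach1-/-, cell type and genotype cannot be told apart.

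Libraries held 18.58 M to 23.40 M reads on genes, and the spread between replicates was small, with a biological coefficient of variation of 3.08% in Hepa1 and 2.45% in MEFs. The liver markers did not all follow the label: Alb and Afp were read in Hepa1 libraries, but Apoa1, Ttr and Serpina1a had 0 reads in every library and Hnf4a had none in 5 of the 6 Hepa1 libraries. The fibroblast gene Col1a2 was at 14.9 CPM (gene reads scaled to a common library size, with TMM factors) in replicate 3 of Hepa1 in ferroptotic medium, against 0.943 and 0.824 CPM in the other two libraries of that group and 16392 to 19806 CPM in MEFs. The Hepa1 counts over all members are therefore also given without that library. In bulk RNA, a change in the mix of cells and a change of RNA per cell cannot be told apart.

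The promoters of these genes are shown for 5 members, because a match to the NRF1 motif was, of the motifs searched, the one most members shared. NRF1 (nuclear respiratory factor 1) is a transcription factor known to bind promoters of respiratory chain genes. The stretches below run 5′ to 3′ upstream of the RefSeq start site (GRCm38.p6), outside all GENCODE exons, and capitals mark the NRF1 matches. Atp5h lies at chr11:115419963-115420089 on the minus strand, Cox6a1 at chr5:115348982-115349128 on the minus strand, Ndufa11 at chr17:56717686-56717761 on the plus strand, Ndufs5 at chr4:123718203-123718356 on the minus strand and Ndufaf4 at chr4:24897913-24898082 on the plus strand. They were chosen after their values were seen, from complexes I, IV and V and the assembly factors.
Atp5h: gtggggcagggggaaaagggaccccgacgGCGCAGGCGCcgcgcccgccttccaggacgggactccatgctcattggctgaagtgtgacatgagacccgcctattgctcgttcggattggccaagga
Cox6a1: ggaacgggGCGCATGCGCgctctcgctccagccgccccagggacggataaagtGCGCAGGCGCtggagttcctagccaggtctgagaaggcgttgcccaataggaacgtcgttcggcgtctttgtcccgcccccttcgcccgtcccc
Ndufa11: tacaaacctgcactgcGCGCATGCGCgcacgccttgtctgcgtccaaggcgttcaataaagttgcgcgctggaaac
Ndufs5: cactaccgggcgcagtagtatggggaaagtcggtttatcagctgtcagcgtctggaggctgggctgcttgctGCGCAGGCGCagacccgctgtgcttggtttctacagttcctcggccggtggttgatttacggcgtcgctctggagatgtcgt
Ndufaf4: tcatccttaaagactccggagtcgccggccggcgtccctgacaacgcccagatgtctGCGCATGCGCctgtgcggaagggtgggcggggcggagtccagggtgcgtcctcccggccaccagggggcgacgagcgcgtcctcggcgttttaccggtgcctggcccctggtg

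RefSeq promoter windows of 250 bases before and 50 after the start site were found for 78 of the 98 symbols, 84 windows in all, and 32851 windows of all mouse genes served as background. The NRF1 motif was searched on both strands as the capitals GCGCATGCGC above, with any base allowed before the T. It was in 21.4% of the member windows and 4.6% of all windows. The ETS family motif CCGGAAGT, which GABPA binds, was in 10.7% and 3.89% of them. The TATA box TATAAA was in 10.7% and 13.6%, and the median GC content was 58.0% and 52.7%. The motif of YY1, another transcription factor, was also searched and was in 7 member windows (8.33%) and 0.852% of all windows. Relative to all windows, this was the largest excess among the motifs searched, though NRF1 matches were in more member windows. A match to letters is a description and does not show that a factor binds there.

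Together the members took 1.22 to 1.24% of gene reads in Hepa1 in ferroptotic medium and 0.958 to 0.993% in Hepa1 in control medium. In MEFs they took 0.514 to 0.531% in ferroptotic medium and 0.522 to 0.541% in control medium. Per kilobase of exon, Atp5a1, the alpha subunit of the catalytic head of complex V, was the most abundant member in MEFs in control medium at 270.4 CPM per kb. The small complex IV subunit genes Cox8a and Cox6a1 followed there at 219.97 and 215 CPM per kb. In Hepa1 in ferroptotic medium Atp5a1 reached 455 CPM per kb, Cox6a1 435 and the complex V beta subunit gene Atp5b 410.1 CPM per kb. Over the 94 members tested in all 12 libraries, the median level was 32.7 CPM per kb in Hepa1 in ferroptotic medium and 25.9 in Hepa1 in control medium, and 23.6 in MEFs in ferroptotic medium and 24.8 in MEFs in control medium. Assembly and other factors lay lower, with medians of 6.31 and 7.22 CPM per kb in Hepa1 in ferroptotic and control medium and 5.28 and 5.07 in MEFs. By the length of coding transcripts in place of all exons, Atp5b and not Atp5a1 stood first in every group. Atp5l, which encodes a membrane subunit of complex V, shares 84.85% of its 50-base windows with other annotated transcripts and had under 2 CPM in every library; whether shared sequence lowered its count was not tested.

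In Hepa1 cells, subunit genes of all 4 complexes were higher in ferroptotic than in control medium, and assembly factors were divided. Of 90 members tested, 68 rose, 4 fell and 18 did not pass the test (edgeR quasi-likelihood test, Benjamini-Hochberg adjusted p under 0.05), where 29.3% of all 13169 genes tested rose and 28.8% fell. The median log2 change was 0.30 over the members and 0.004 over all genes. Without replicate 3 of the ferroptotic group, 67 rose, 4 fell and the median was 0.29. Among the 46 members that overlap another gene's exons or share over 10% of their windows with other transcripts, 35 rose and 3 fell, and among the other 44 members 33 rose and 1 fell.

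Of the 36 complex I genes 33 rose and none fell, and the median log2 change was 0.34. Ndufv3 (ENSMUSG00000024038, chromosome 17, 31520115 to 31531331), an accessory subunit of the NADH-binding module, was at 99.6, 101 and 110.0 CPM in Hepa1 in ferroptotic medium, against 66.3, 61.7 and 66.7 CPM in control medium. The groups were far apart, and the log2 change of 0.68 ± 0.04 (SE, edgeR adjusted p = 1.22e-13) was the largest rise among the members. Ndufb8 and Ndufb11, accessory subunits of the membrane arm, rose by 0.60 ± 0.04 and 0.59 ± 0.04 on the log2 scale. Ndufb8 was at 79.8, 79.4 and 82.6 CPM in ferroptotic medium, against 55.0, 50.7 and 53.9 CPM in control medium. Ndufa9 (chromosome 6, 126821721 to 126849136), which sits where the arms of the complex meet, was at 86.4, 83.9 and 87.5 CPM in ferroptotic medium, against 57.7, 60.3 and 58.0 CPM in control medium. Its log2 change was 0.55 ± 0.04 (edgeR adjusted p = 2.84e-12), with no overlap between the media. The 7 core subunit genes, whose products carry the flavin and the iron-sulfur clusters, all rose, with a median log2 change of 0.23 beside 0.37 for the 29 accessory subunits. The largest change of a core gene was 0.45 ± 0.05, for Ndufs8. Ndufa6, Ndufa10 and Ndufb4 did not pass the test, with log2 changes of -0.03 ± 0.04, 0.08 ± 0.03 and 0.12 ± 0.15.

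Complex III had 7 of its 8 genes higher, at a median log2 change of 0.30. Uqcr11, a small subunit, was at 41.8, 39.6 and 41.1 CPM in ferroptotic medium, against 29.6, 26.4 and 28.9 CPM in control medium, a log2 change of 0.53 ± 0.05 (edgeR adjusted p = 2.31e-09). Uqcrh, the hinge protein that contacts cytochrome c1, changed by 0.37 ± 0.04 and Uqcr10 by 0.36 ± 0.04. Uqcrc2, a core protein of the matrix side, was at 123, 121 and 129.8 CPM in ferroptotic medium, against 96.3, 104 and 101 CPM in control medium, a log2 change of 0.31 ± 0.04. Uqcrq was the exception, at 175, 175 and 178 CPM in ferroptotic medium, against 181, 163 and 189 CPM in control medium. Its media overlapped, and the log2 difference was -0.01 ± 0.04 (edgeR adjusted p = 0.799). Without replicate 2 of the control group it was -0.0738, with adjusted p = 0.0418.

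In complex IV, 9 of the 11 broadly expressed subunit genes rose, and the only restricted isoform that passed the low-count filter, Cox6a2, fell. Cox6a1 (chromosome 5, 115345642 to 115348981) was at 297, 303 and 315 CPM in ferroptotic medium, against 235, 211 and 239 CPM in control medium. The log2 change was 0.42 ± 0.04 (edgeR adjusted p = 3.63e-10). Cox6c, Cox7a2 and Ndufa4, which was first named as a complex I subunit and is now placed in complex IV, changed by 0.44 ± 0.04, 0.42 ± 0.04 and 0.41 ± 0.04. Cox5a, at 0.08 ± 0.05, and Cox7c, at -0.01 ± 0.10, did not pass the test. Cox7c shares 23.03% of its windows with other annotated genes and was read at 6.81 to 8.04 CPM in Hepa1.

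Complex V had 14 of its 16 tested genes higher, at a median log2 change of 0.33, and all 5 genes of the catalytic F1 part were among them. Atp5c1 (chromosome 2, 10056016 to 10080510), the gamma subunit that turns inside the head, was at 104, 111 and 114 CPM in ferroptotic medium, against 74.0, 75.01 and 70.3 CPM in control medium. Its log2 change of 0.58 ± 0.04 (edgeR adjusted p = 1.15e-12) was the largest of the complex. Atp5a1 and Atp5b, the alpha and beta subunits, changed by 0.30 ± 0.03 and 0.33 ± 0.03. Atp5d, the delta subunit, changed by 0.11 ± 0.04, and its call was lost in 5 of the 6 fits that left out a library, with adjusted p between 0.0518 and 0.245 and a change of 0.0438 without replicate 2 of the control group. Atp5g1, Atp5g2 and Atp5g3 encode the same mature c-ring protein: Atp5g3 was at 239.6, 251 and 258 CPM in ferroptotic medium, against 187, 183 and 188 CPM in control medium, a log2 change of 0.42 ± 0.03. Atp5g1 changed by 0.36 ± 0.09, and Atp5g2 by 0.08 ± 0.21, which did not pass the test.

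Of the 18 assembly and other factors tested in Hepa1, 5 rose and 3 fell, with a median log2 change of 0.006. The share that rose was near the 29.3% of all genes, and 28.8% of all genes fell. The 5 were Cox10 and Cox15, which make heme A, Cox16 and Cox19, which serve the copper sites of complex IV, and Ndufaf6, a complex I assembly factor. Ndufaf6 changed by 0.20 ± 0.08 (edgeR adjusted p = 0.037), and its call was lost with DESeq2, without the count filter, with the replicate block and without 3 single libraries, at adjusted p of 0.0501 to 0.171. Cox10 was at 28.5, 27.4 and 24.5 CPM in ferroptotic medium, against 22.1, 21.1 and 22.9 CPM in control medium, a log2 change of 0.28 ± 0.07. Cox16 shares 74.54% of its windows with other transcripts, so its reads are uncertain. Ndufaf4 (chromosome 4, 24898083 to 24905001), a complex I assembly factor, fell: it was at 23.9, 25.8 and 23.5 CPM in ferroptotic medium, against 27.3, 28.3 and 28.8 CPM in control medium. Its log2 change was -0.21 ± 0.06 (edgeR adjusted p = 0.00367). Cox7a2l (chromosome 17, 83501918 to 83517330), which joins complexes III and IV into supercomplexes, was at 88.5, 89.9 and 91.6 CPM in ferroptotic medium, against 99.4, 104 and 113 CPM in control medium. The log2 change was -0.23 ± 0.04 (edgeR adjusted p = 3.62e-05). Cox17, the copper chaperone of complex IV, changed by -0.35 ± 0.11 (edgeR adjusted p = 0.00944), and without replicate 1 of the control group by -0.27, with adjusted p = 0.0715.

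**Figure D1:**
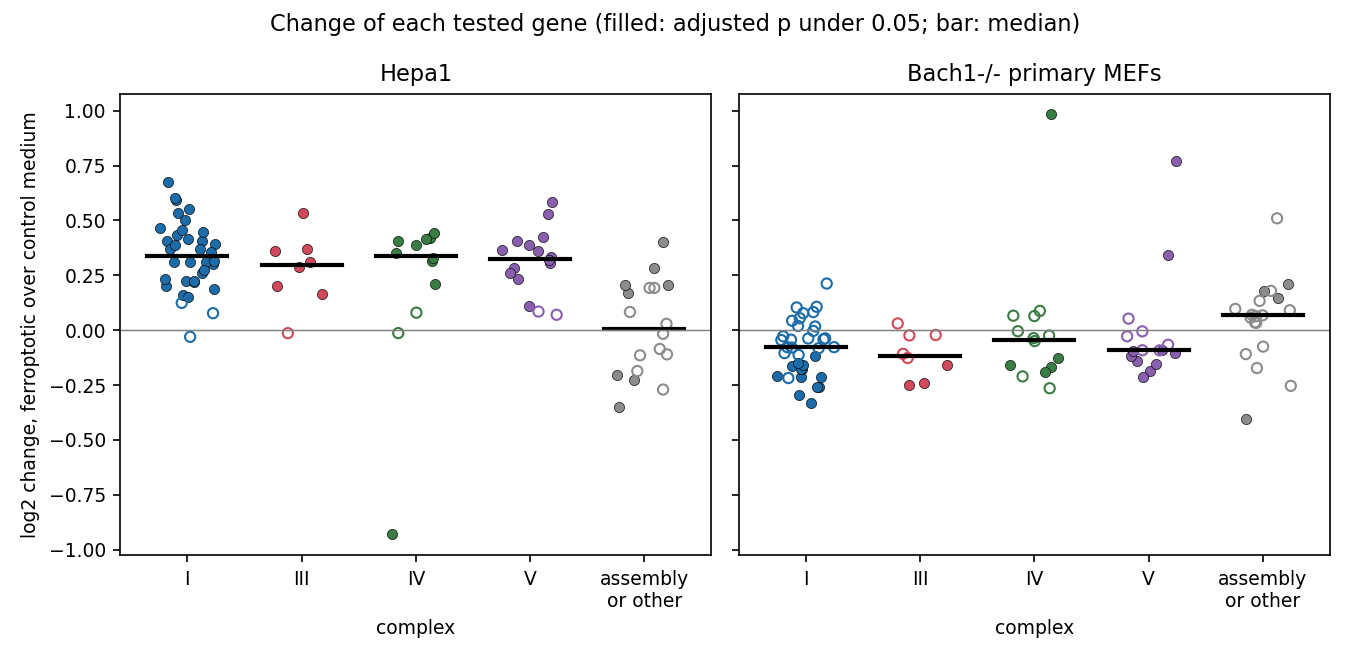
Log2 change of each tested gene in ferroptotic over control medium (y axis) by complex (x axis), in Hepa1 (left) and Bach1-/- primary MEFs (right); filled points passed edgeR's test at adjusted p under 0.05 and bars are medians. In Hepa1 the medians of complexes I, III, IV and V lie between 0.30 and 0.34 and that of the assembly and other factors at 0.006, while the MEF medians lie between -0.12 and 0.07, and the MEF median over all members turns to 0.002 without scaling beyond total counts.

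In Bach1-/- MEFs the same genes moved less, and those that passed the test were mostly lower in ferroptotic medium. Of 93 members tested, 6 rose, 29 fell and 58 did not pass the test. Among all 14441 genes tested, 27.8% rose and 27.2% fell. The share of members that fell was thus near that of all genes, while the share that rose was below it. The median log2 change was -0.07 over the members and 0.003 over all genes, but without scaling beyond total counts it was 0.002, with 16 higher and 16 lower. The median over all genes was then 0.07, so that the members' median lay 0.07 below it. Of the 29 lower calls, 16 were kept under every scaling tried. The count of higher calls ran from 3 to 5 when a library was left out, and was 3 without replicate 1 of the ferroptotic group. With DESeq2 it was 1.

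In complex I, 13 of 36 genes fell in MEFs and none rose, where 27.2% of all genes fell and 27.8% rose. The falls of Ndufa8, Ndufa12, Ndufb9, Ndufs6 and Ndufv2 were lost under at least 1 scaling and at least 1 left-out library. Ndufa7 was at 68.3, 66.4 and 69.5 CPM in ferroptotic medium, against 79.2, 83.0 and 83.0 CPM in control medium. The media did not overlap, and the log2 change was -0.26 ± 0.04 (edgeR adjusted p = 1.13e-07). Ndufa6 and Ndufc2, accessory subunits as Ndufa7 is, changed by -0.30 ± 0.05 and -0.26 ± 0.04. These 3 calls were kept under every scaling and every left-out library. Ndufv3, which rose most in Hepa1, was at 74.9, 72.6 and 76.8 CPM in ferroptotic medium, against 73.5, 73.1 and 75.8 CPM in control medium in MEFs, where its media overlapped.

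In complex III, Uqcrc2, Uqcrfs1 and Uqcrh fell in MEFs and the other 5 genes did not pass the test. Uqcrfs1, the Rieske iron-sulfur protein, was at 62.1, 61.1 and 59.1 CPM in ferroptotic medium, against 75.5, 67.8 and 72.7 CPM in control medium, a log2 change of -0.24 ± 0.04 (edgeR adjusted p = 3.72e-06). Uqcrc2 was at 100.4, 98.0 and 95.8 CPM in ferroptotic medium, against 120.3, 113 and 117 CPM in control medium, a log2 change of -0.25 ± 0.03. In complex IV, 4 of 14 genes tested fell, a share near the 27.2% of all genes, and Cox4i2 rose. Cox4i1 (chromosome 8, 120668222 to 120674207), the usual form of the regulatory subunit 4, was at 223, 212 and 231 CPM in ferroptotic medium, against 242, 251 and 256 CPM in control medium. Its log2 change was -0.17 ± 0.03 (edgeR adjusted p = 6.78e-06), and Cox6b1 changed by -0.19 ± 0.04. Cox6a1, at -0.13 ± 0.03, and Cox7a2, at -0.16 ± 0.04, lost the call without scaling.

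In complex V, 8 of 16 genes tested fell and 2 rose in MEFs, where 27.2% of all genes fell and 27.8% rose. The falls of Atp5a1 and Atp5d were kept under every scaling tried. Those of Atp5c1, Atp5e, Atp5f1, Atp5g3, Atp5j and Atp5mpl were not. Atp5a1 was at 753, 731 and 747 CPM in ferroptotic medium, against 843, 838 and 863 CPM in control medium, a log2 change of -0.19 ± 0.03 (edgeR adjusted p = 9.15e-08). Atp5d changed by -0.21 ± 0.03. Atp5e, the epsilon subunit, and Atp5mpl, a small membrane subunit, changed by -0.14 ± 0.03 and -0.16 ± 0.05, and both lost the call without scaling. The beta subunit gene Atp5b changed by 0.05 ± 0.03, which did not pass the test with TMM scaling (adjusted p = 0.0994) but rose by 0.12 without scaling. The 2 that rose were Atp5g1, at 0.34 ± 0.11, and Atp5l, at 0.77 ± 0.33 from 0.876, 1.25 and 1.21 CPM in ferroptotic medium, against 0.986, 0.277 and 0.708 CPM in control medium. Both lost the call in fits that left out a library, and without replicate 2 of the control group the Atp5l change was 0.39 (adjusted p = 0.352). The Atp5l levels overlapped between the media.

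Among the 19 assembly and other factors in MEFs, Ndufaf1, Ndufaf4 and Ndufaf7 rose and Cox7a2l fell. Cox7a2l was at 43.5, 44.3 and 43.8 CPM in ferroptotic medium, against 54.6, 59.5 and 60.5 CPM in control medium. The log2 change of -0.40 ± 0.05 (edgeR adjusted p = 1.25e-10) was the largest fall of a member in MEFs, and its direction was that seen in Hepa1. Ndufaf4 was at 14.5, 15.2 and 12.4 CPM in ferroptotic medium, against 11.7, 13.1 and 11.6 CPM in control medium, a log2 change of 0.21 ± 0.09 (edgeR adjusted p = 0.0361), with overlap between the media. Ndufaf1, an early assembly factor of complex I, changed by 0.18 ± 0.08 and Ndufaf7, another assembly factor of complex I, by 0.14 ± 0.06. All 3 calls were lost when single libraries were left out, with log2 changes between 0.08 and 0.19 in those fits, the lowest for Ndufaf7 without replicate 1 of the control group.

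**Figure D2:**
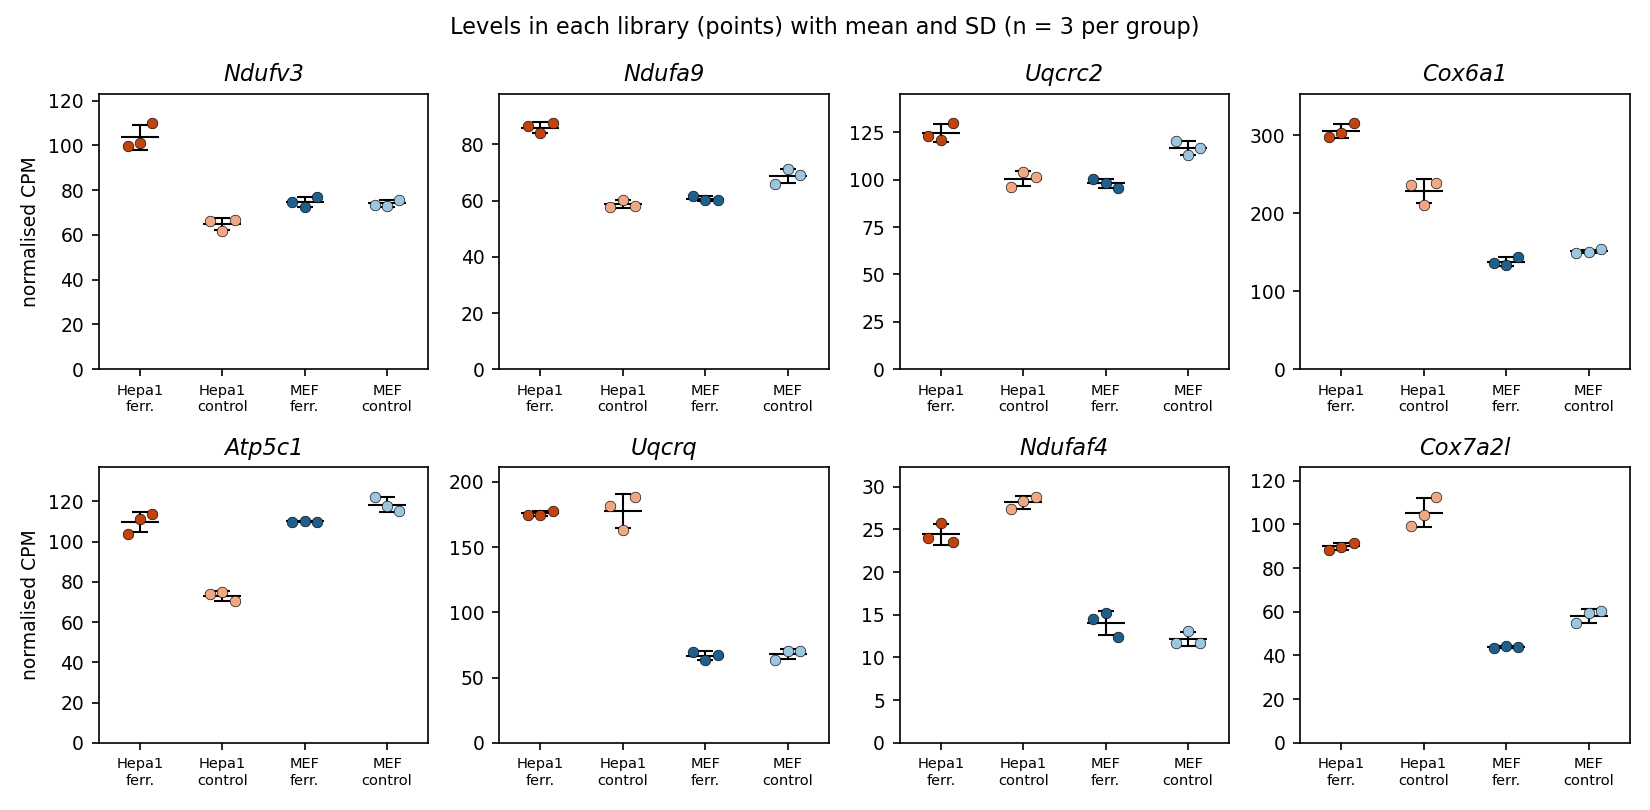
Normalised CPM (y axis, from 0) of 8 members in each of the 12 libraries (points), with group mean and SD (bars, n = 3), Hepa1 in ferroptotic and control medium on the left of each panel and MEFs on the right. Atp5c1 was at 104 to 114 CPM in Hepa1 in ferroptotic medium and 70.3 to 75.01 CPM in control medium, and Uqcrq overlapped between the media in both cell types.

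The difference between the responses was tested directly, as the change in Hepa1 minus the change in MEFs over all 12 libraries. It was positive and past the threshold for 66 of 94 members and negative for 2, where 23.3% of all 15627 genes tested had a positive and 20.9% a negative difference. The median difference on the log2 scale was 0.36 for the members and 0.03 for all genes, and it was 0.34 without scaling. Complex I gave 33 of 36 positive differences, complex III 7 of 8, complex V 13 of 16 and complex IV 9 of 15, against 4 of 19 for the assembly and other factors. Without replicate 3 of Hepa1 in ferroptotic medium, 66 were positive and 1 negative.

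Among the members that passed, Ndufa9 and Ndufa7 had the largest positive differences, 0.73 ± 0.06 and 0.73 ± 0.07 (edgeR adjusted p = 2.64e-14 and 1.06e-12). Ndufa9 was at 61.6, 60.1 and 60.1 CPM in MEFs in ferroptotic medium, against 65.9, 71.1 and 69.2 CPM in control medium, so that each cell type's media were apart, in opposite directions. Atp5c1 differed by 0.69 ± 0.06, and its MEF change of -0.10 ± 0.03 lost the call without scaling. Ndufv3 differed by 0.66 ± 0.06 and Atp5g3 by 0.51 ± 0.05. The 2 negative differences belonged to complex I assembly factors: -0.41 ± 0.10 for Ndufaf4 (edgeR adjusted p = 0.00097) and -0.29 ± 0.10 for Ndufaf1 (edgeR adjusted p = 0.0187). The Ndufaf1 difference lost the call without replicate 3 of Hepa1 or of MEFs in ferroptotic medium, at -0.24 and -0.23.

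Set side by side, 27 of the 89 members tested in both cell types rose in Hepa1 and fell in MEFs (30.3%, beside 7.62% of the 12042 genes tested in both). The MEF falls of 13 of these 27 depended on the scaling. The difference passed the test for all 27. They were chosen by opposite calls in the same libraries, so this adds no separate evidence. A further 40 rose in Hepa1 without a call in MEFs (44.9%, beside 11.9% of all genes), and the difference passed for 35 of these. Atp5g1 rose in both cell types, Cox7a2l fell in both, and Ndufaf4 was the only member that fell in Hepa1 and rose in MEFs. The responses were also set beside the promoter matches. In Hepa1, 12 of 17 with a match rose with a median log2 change of 0.31, beside 44 of 56 without one and a median of 0.32. In MEFs, 6 of 17 with a match fell, with a median of -0.09, beside 15 of 58 without one and a median of -0.04.

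**Figure D3:**
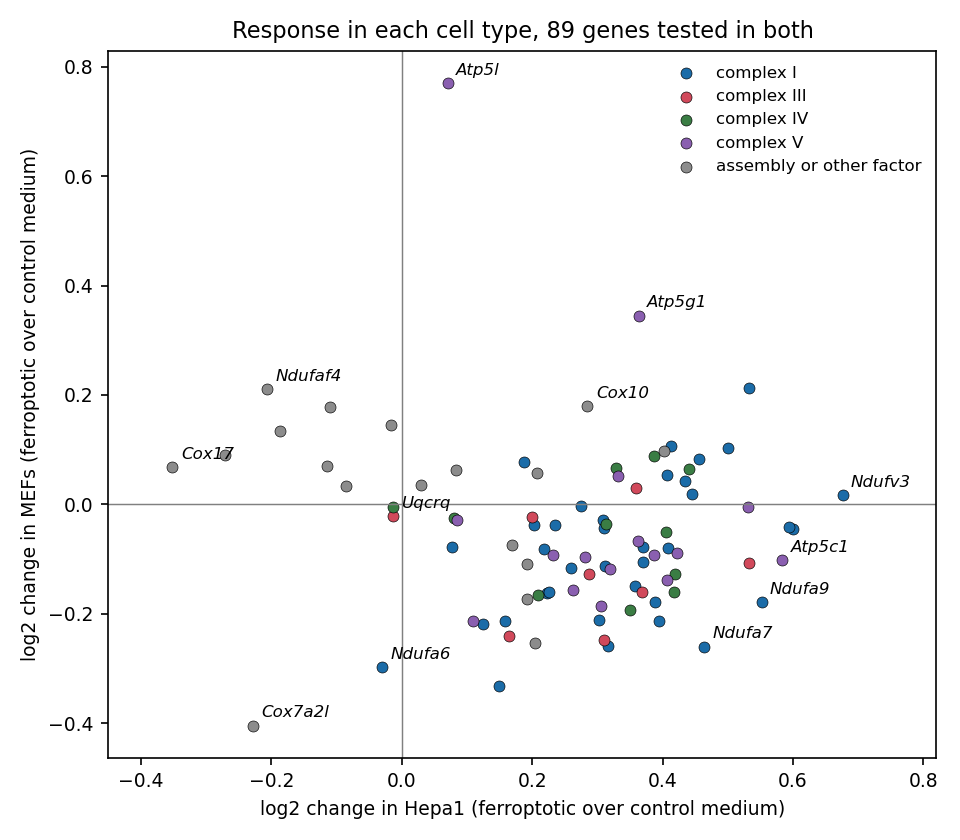
Log2 change in ferroptotic over control medium in Hepa1 (x axis) and in MEFs (y axis) for the 89 genes tested in both, coloured by complex. Most subunit genes lie to the right of 0 in Hepa1, Ndufaf4 lies at -0.21 and 0.21, and Cox7a2l at -0.23 and -0.40. The MEF values move up without scaling, where their median is 0.002.

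The levels in Hepa1 and MEFs were compared within each medium in the same 12-library fit, which shares its libraries with the differences above. In ferroptotic medium 64 of 94 members were higher in Hepa1 than in MEFs and 16 lower, where 41.5% of all genes tested were higher and 46.7% lower (88.2% in either direction), and the median log2 ratio was 0.39. In control medium 41 were higher and 37 lower, where 40.7% of all genes were higher and 46% lower (86.6% in either direction), and the median was 0.05. Scaling matters here: without it the median of all genes moves to 0.46 in ferroptotic and 0.49 in control medium, and the members' medians become 0.93 and 0.61, with 82 higher and 9 lower in ferroptotic and 73 higher and 10 lower in control medium. Relative to the median of all genes, the members were thus higher by 0.47 and 0.13 in these unscaled fits.

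Uqcrq and Ndufb9, an accessory subunit of complex I, stood out as higher in Hepa1. Uqcrq had log2 ratios of 1.40 ± 0.05 in ferroptotic and 1.39 ± 0.05 in control medium. Ndufb9 was at 102, 101 and 105 CPM in Hepa1 in ferroptotic medium, against 33.0, 36.1 and 37.8 CPM in MEFs in that medium, and its log2 ratio there was 1.53 ± 0.04 (edgeR adjusted p = 6.2e-32). Ndufaf4 was higher by 0.80 ± 0.07 in ferroptotic and 1.21 ± 0.07 in control medium. Ndufa12, the complex I accessory subunit, and Ndufaf6 had log2 ratios of 1.40 ± 0.06 and 1.47 ± 0.11 in ferroptotic medium. Ndufa3, another complex I accessory subunit, had the lowest ratio among subunit genes outside the restricted isoforms. It was at 34.5, 36.0 and 37.1 CPM in Hepa1 in ferroptotic medium, against 75.7, 76.8 and 78.1 CPM in MEFs in that medium, with log2 ratios of -1.10 ± 0.04 in ferroptotic and -1.44 ± 0.05 in control medium. Atp5k, a membrane subunit of complex V that takes part in dimer formation, had log2 ratios of -0.80 ± 0.06 and -1.34 ± 0.07 in the same order. With TMM scaling, 13 members were higher in Hepa1 in ferroptotic medium and lower in control medium. The share of all genes with this pattern was not counted. For none of the 13 was the lower call in control medium kept under every scaling. Among them were Ndufa9 (0.50 and -0.23), Ndufv3 (0.47 and -0.19) and Uqcrc2 (0.35 and -0.22). Without scaling these 3 ratios in control medium turned to 0.34, 0.37 and 0.35. Among assembly factors, Ndufaf7 and Cox18 were lower in Hepa1 in ferroptotic medium, with log2 ratios of -0.90 ± 0.07 and -0.89 ± 0.11, and Ndufaf3 in control medium, with a ratio of -0.77 ± 0.09. Without scaling the Ndufaf3 ratio in ferroptotic medium turned to 0.13, and that of Cox18 in control medium to 0.0305.

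Several complex IV subunits have isoforms that are normally confined to some tissues. Cox6b2, the testis form of subunit 6b, had 0 reads in all 6 Hepa1 libraries and 123, 101 and 130 reads in MEFs in ferroptotic medium. With a floor of 3 reads over the Hepa1 group, its level was at least 150.4-fold higher in MEFs in ferroptotic medium and at least 170.1-fold higher in MEFs in control medium, where it had 139, 121 and 119 reads. Cox6a2, the heart and muscle form of subunit 6a, went the other way, with 43, 49 and 58 reads in Hepa1 in ferroptotic medium and 96, 83 and 100 in control medium, against 1 to 4 reads in each MEF library. It fell in Hepa1 in ferroptotic medium by 0.93 ± 0.15 on the log2 scale (edgeR adjusted p = 8.6e-06), while its partner Cox6a1 rose. Per length, Cox6a2 made up 0.699% of the pair in Hepa1 in ferroptotic medium and 1.76% in control medium.

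Cox4i2, the form of subunit 4 known from lung and from low oxygen, had 39, 46 and 50 reads in MEFs in ferroptotic medium, against 23, 21 and 19 in control medium. The media did not overlap, and the log2 change was 0.98 ± 0.22 (edgeR adjusted p = 0.000149), the only rise in MEFs that was kept in every alternative. Its share of the Cox4i1 and Cox4i2 pair per length was 2.07% in ferroptotic and 0.941% in control medium in MEFs. In Hepa1 it had 1, 7 and 0 reads in ferroptotic medium, against 0, 1 and 0 in control medium, too few to test. Ndufa4l2, the paralogue of Ndufa4 induced by low oxygen, had 5 reads in all in Hepa1 in ferroptotic medium and 7 in control medium, against 71 and 79 in MEFs in the same media. Cox7a1, Cox7b2 and Cox8b had at most 12 reads in any library and were not tested.

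**Figure D4:**
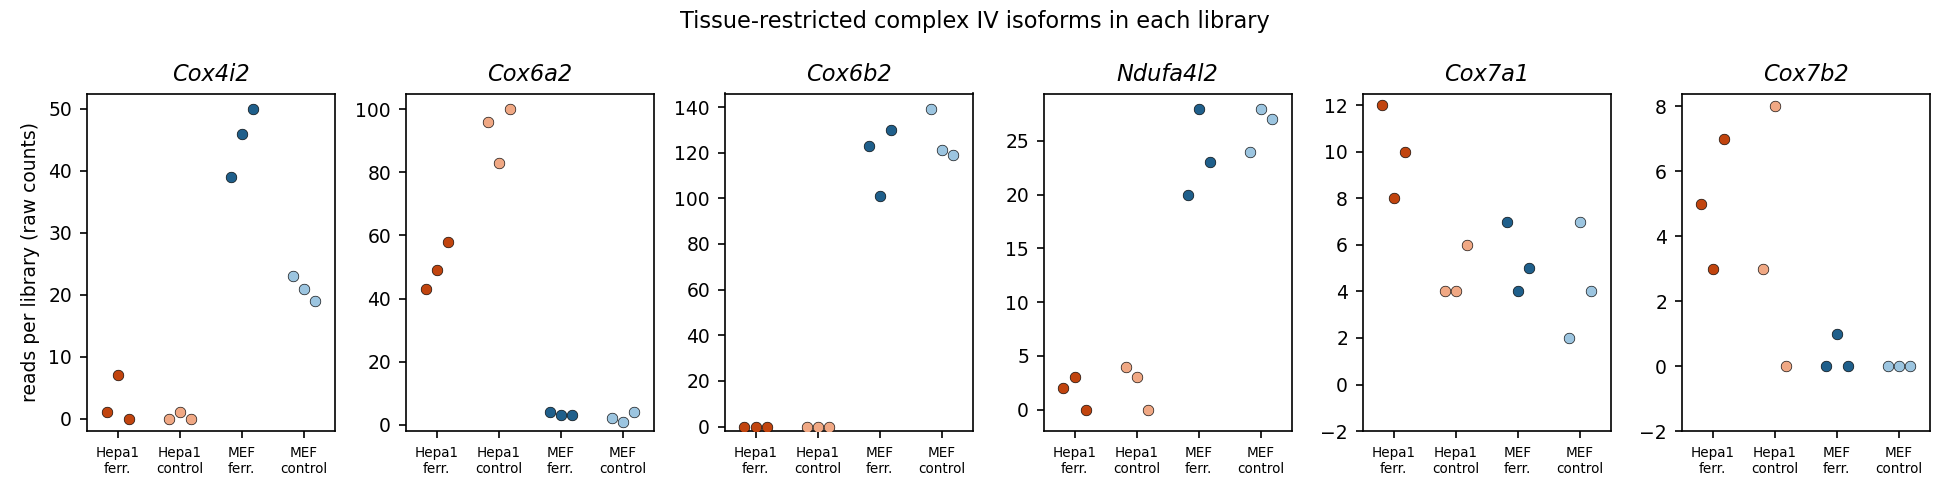
Raw reads per library (y axis) of 6 tissue-restricted complex IV isoform genes in each of the 12 libraries, ferroptotic left of control medium for Hepa1 and then MEFs. Cox6b2 has 0 reads in all Hepa1 libraries, Cox6a2 is read mainly in Hepa1 with 43 to 58 reads in ferroptotic and 83 to 100 in control medium, and Cox4i2 has 39 to 50 reads in MEFs in ferroptotic and 19 to 23 in control medium.

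Other genes of the pathway were read from lists chosen by function, to be read against the 29.3% of all genes that rose and 28.8% that fell in Hepa1, and the 27.8% and 27.2% in MEFs. Of 8 genes of complex II and its assembly, 4 rose and 1 fell in Hepa1, and 1 fell in MEFs. Sdhd, a membrane anchor of complex II, changed by 0.30 ± 0.04 in Hepa1 and -0.21 ± 0.04 in MEFs. Cyc1, the cytochrome c1 subunit of complex III that the naming rule does not take, changed by 0.27 ± 0.04 in Hepa1 and -0.16 ± 0.04 in MEFs. Of 16 tricarboxylic acid cycle genes tested, 9 rose in Hepa1 and 7 fell with 1 rise in MEFs. Pdha1, a subunit of pyruvate dehydrogenase, was at 118, 118 and 124 CPM in Hepa1 in ferroptotic medium, against 95.3, 98.1 and 99.6 CPM in control medium. In MEFs it was at 201, 205 and 206 CPM in ferroptotic medium, against 314, 324 and 310.1 CPM in control medium, a log2 change of -0.63 ± 0.03. Hccs, which attaches heme to cytochrome c, changed by -0.19 ± 0.05 in Hepa1 and -0.87 ± 0.04 in MEFs. Of 13 coenzyme Q synthesis genes, 5 rose (38.5%) and 3 fell (23.1%) in Hepa1, near the shares of all genes, and 3 fell in MEFs.

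Subunits encoded in mitochondrial DNA went the other way in Hepa1. Of the 13 mitochondrial protein genes in the table, 7 passed the filter; mt-Co2, mt-Co3, mt-Atp6, mt-Atp8 and mt-Nd4l had 0 reads in every library. How reads that map to several places were treated could not be checked, so sums over these mRNAs may miss part of them. In Hepa1 all 7 fell, with a median log2 change of -0.68, and in MEFs 4 rose and 1 fell, with a median of 0.18. mt-Nd1, a complex I subunit, was at 641, 633 and 686 CPM in Hepa1 in ferroptotic medium, against 1308, 1274 and 1301 CPM in control medium, a log2 change of -0.99 ± 0.03. The summed CPM of the nuclear members divided by that of the mitochondrial mRNAs was 3.49, 3.54 and 3.43 in Hepa1 in ferroptotic medium, against 1.69, 1.67 and 1.69 in control medium. In MEFs it was 0.509, 0.499 and 0.514 in ferroptotic medium, against 0.559, 0.582 and 0.566 in control medium. In Hepa1 every ferroptotic library stood far above every control library, and in MEFs the ratio was lower in each ferroptotic library than in each control library.

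**Figure D5:**
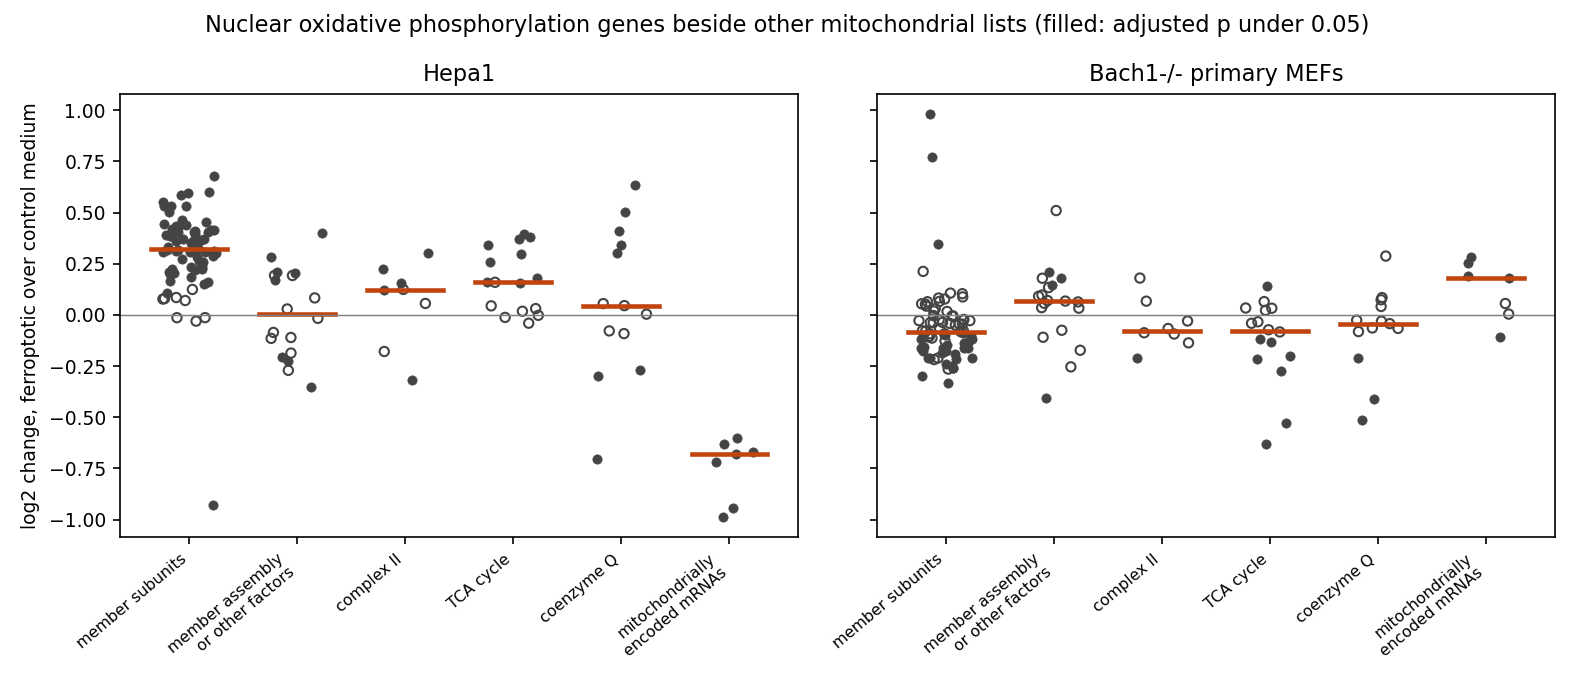
Log2 change in ferroptotic over control medium (y axis) of single genes by list (x axis) in Hepa1 (left) and MEFs (right); filled points passed edgeR's test at adjusted p under 0.05 and bars are medians. In Hepa1 the member subunits have a median of 0.32 and the 7 mitochondrially encoded mRNAs a median of -0.68, while in MEFs the medians are -0.09 and 0.18.

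Known regulators of these genes did not share a direction. Of 19 tested, 6 rose and 8 fell in Hepa1, where 29.3% of all genes rose and 28.8% fell. In MEFs 7 rose and 6 fell, where 27.8% of all genes rose and 27.2% fell. Ppargc1a, the coactivator PGC-1alpha, was at 11.2, 10.2 and 10.0 CPM in MEFs in ferroptotic medium, against 1.16, 1.72 and 1.18 CPM in control medium, a log2 change of 2.94 ± 0.15. In Hepa1 it changed by 0.36 ± 0.14. Myc was at 129, 124 and 102 CPM in Hepa1 in ferroptotic medium, against 238, 249 and 271 CPM in control medium, and it changed by -1.20 ± 0.06 in MEFs. Nrf1 changed by -0.20 ± 0.05 in Hepa1 and 0.05 ± 0.06 in MEFs, and Hif1a, which encodes the oxygen-regulated subunit of HIF-1, by -0.82 ± 0.04 and -0.66 ± 0.03.

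Other marker lists also changed in Hepa1, not all in the members' direction. All 8 proliferation markers rose there, with a median log2 change of 2.42 and summed levels of 556 to 605 CPM in ferroptotic medium, against 148 to 176 CPM in control medium. In MEFs 7 of the 8 rose and Cdk1 fell, with a median of 0.88 and sums of 76.9 to 83.8 CPM in ferroptotic medium, against 46.6 to 51.9 CPM in control medium. The 4 hepatocyte markers tested in Hepa1, Alb, Apoa2, Trf and Afp, all rose, with summed levels of 1333 to 1451 CPM in ferroptotic medium, against 404 to 424 CPM in control medium. Of 5 fibroblast markers tested in Hepa1, 4 rose. The list's sum was 403 to 411 CPM in ferroptotic medium, against 337 to 379 CPM in control medium. Among the 5 was Col1a2, raised within the ferroptotic group in replicate 3 alone. The list was not counted without that library. Of 6 macrophage markers, Adgre1 and Lyz2 rose and Cd68 and Csf1r fell in Hepa1, with sums of 8.63 to 10.4 CPM in ferroptotic medium, against 22.4 to 27.9 CPM in control medium, and Ptprc had 0 reads. In MEFs 2 of 10 fibroblast markers rose and 5 fell. The part of these markers in the members' change was not tested.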

How the data were processed

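RNA-seq counts of 12 libraries in 4 groups of 3 were used. The authors deposited raw counts per Ensembl gene. Per the submitters' processing notes, reads were checked with FastQC 0.11.9, trimmed with Trimmomatic 0.39, aligned with STAR 2.7.10a to GRCm38 (mm10) and assigned to genes with HTSeq 0.9.1. Neither the annotation release nor the strand setting is given in the sources used here. Reads of 33 members whose exons overlap a gene on the other strand may be mixed with it. Symbols came from GENCODE M21, which named 55141 of 55487 identifiers. The 5 HTSeq summary lines were left out. Reads on no gene made up 2.00 to 2.58% and ambiguous reads 3.66 to 4.03% of all lines' total.

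Each cell type's 6 libraries were fitted with edgeR 4.0.16 in R 4.3.3 (filterByExpr, TMM, quasi-likelihood F-test, Benjamini-Hochberg over all genes, calls at adjusted p under 0.05). Differences of responses and cell types were contrasts of a 12-library fit, from which the printed CPM come. SE is the log2 change divided by the square root of F. The pipeline was tested on simulated data. Alternatives were other scalings, DESeq2 1.42.0, limma-voom 3.58.1, other filters, a replicate block and each library left out. Members, lists and tests were chosen with earlier results of these data known. Named in each comparison were up to 4 members per class with the smallest adjusted p, called members against their class's direction, the top 5 differences and cell type ratios per direction, and the isoform genes; Ndufs8, Cox5a, Cox7c, Atp5g2, Ndufa10 and Ndufb4 were named after their values were seen. Whether replicates were separate cultures is not stated, and the p-values then measure only the spread between these libraries, which may be technical. Floors of 3 reads cover counting error only. Chi-square per gene between replicates was 1.35 to 4.13, so no library was counted as a duplicate. Some values of single genes are not reported here.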

Additional observations from a re-analysis of the deposited data

Results flagged for a closer look

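The response to the medium differed between Hepa1 and MEFs for 66 and 2 of 94 members, by the interaction test over all 12 libraries. The signed log2 change in Hepa1 minus that in MEFs was positive for the 66 and negative for the 2. Among all genes tested, 23.3% had a positive and 20.9% a negative difference. The differences on the log2 scale, Hepa1 minus MEFs, were 0.73 for Ndufa9, 0.69 for Atp5c1, 0.73 for Ndufa7, 0.66 for Ndufv3 and 0.51 for Atp5g3, and they were -0.41 for Ndufaf4 and -0.29 for Ndufaf1. The Ndufaf1 difference lost the call without replicate 3 of Hepa1 or of MEFs in ferroptotic medium. Both cell type and Bach1 genotype differ between these cells and cannot be told apart. No group has enough libraries for a test of single outlying samples.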

How the results depend on the processing

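In Hepa1, the count of higher members lay between 66 and 72 and that of lower members between 3 and 6 under every alternative run, and 65 of the 68 higher calls were kept in all of them (Atp5d, Ndufaf6 and Ndufs3 were lost). The Hepa1 median log2 change was 0.35 without scaling and 0.34 with upper quartile scaling. In MEFs, higher members were 16 without scaling, 10 with upper quartile scaling, 1 with DESeq2's Wald test and 3 without a count filter, lower members were 16 without scaling, and the median turned to 0.00227 without scaling. For the difference of responses, lower members were 5 without scaling and 4 with a filter of 1 CPM in 3 libraries.

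Leaving out each library gave 66 to 69 higher, 3 to 6 lower and medians of 0.29 to 0.30 in Hepa1; 3 to 5 higher, 24 to 32 lower and medians of -0.08 to -0.06 in MEFs; and 61 to 67 higher, 1 to 4 lower and medians of 0.33 to 0.39 for the difference. Lower differences were 1 without replicate 3 of Hepa1 or of MEFs in ferroptotic medium, and 4 without replicate 2 of Hepa1 in ferroptotic or replicate 3 in control medium. For cell type they were 63 to 65 higher, 14 to 16 lower and medians of 0.39 to 0.43 in ferroptotic medium, and 40 to 44, 35 to 38 and 0.0344 to 0.0778 in control medium.

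The cell type medians in ferroptotic medium were 0.36 with DESeq2 size factors, 0.93 without scaling, 0.49 with upper quartile scaling and 0.36 with DESeq2's Wald test, with 9 lower without scaling. In control medium they were 0.023, 0.61, 0.14 and 0.0231 in the same order, with 73 higher and 10 lower without scaling. Without scaling, log2 ratios in control medium reversed to 0.38 for Atp5g3, 0.32 for Atp5mpl, 0.32 for Cox16, 0.0305 for Cox18, 0.23 for Cox6b1, 0.23 for Cox7a2, 0.47 for Cox8a (0.000627 with upper quartile scaling), 0.34 for Ndufa9, 0.0475 for Ndufc2, 0.37 for Ndufv3, 0.10 for Uqcrb and 0.35 for Uqcrc2. In ferroptotic medium they reversed to 0.53 for Atp5c1 (0.0929 with upper quartile scaling), 0.50 for Atp5e, 0.13 for Ndufaf3, 0.40 for Ndufc1, 0.49 for Uqcrb and 0.49 for Uqcrh. Scaling sets these ratios by construction, since it shifts every gene of a library alike.

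Replicate numbers did not pair the libraries: deviations of same-numbered libraries correlated at -0.03 to 0.05. With the replicate number as a block, 67 members were higher and 4 lower in Hepa1, 6 higher and 30 lower in MEFs, and 66 and 2 for the difference, and of the named members' calls it ended that of Ndufaf6 in Hepa1 (adjusted p = 0.054). The best-matching control library had the same number for MEF replicates 1 and 3 and for no Hepa1 library. Depth limits Cox7a1, Cox7b2 and Cox8b, with at most 12 reads in a library, and Cox4i2 in Hepa1, with at most 7.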

Other observations

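Slc25a4, which encodes the heart and muscle form of the ADP/ATP carrier that exports the ATP made by complex V, was chosen after its values were seen. It was at 0.123, 0.0434 and 0.527 CPM in Hepa1 in ferroptotic medium, against 0.0423, 0 and 0 CPM in control medium. MEFs had 759, 746 and 792 CPM in ferroptotic medium, against 692, 693 and 735 CPM in control medium. The highest Hepa1 value was in replicate 3 of the ferroptotic group, the library with the raised Col1a2 level. Whether the 2 have the same source was not tested. The other carrier gene Slc25a5 was read in all groups, and its log2 change was -0.17 ± 0.04 in Hepa1 and 0.37 ± 0.04 in MEFs (edgeR adjusted p = 0.00093 and 1.3e-10), opposite to most oxidative phosphorylation genes that passed the test in each cell type; without scaling the median over those genes in MEFs was 0.002.

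Among complex IV genes outside the naming rule, the assembly factors Cmc2 and Smim20 had log2 changes of 0.83 ± 0.10 and 0.45 ± 0.06 in Hepa1, where 4 of the 16 genes tested rose, 3 fell and 9 did not pass the test, with a median of 0.02. In MEFs Smim20 changed by -0.27 ± 0.07, and 7 of the 16 genes of that list fell there (43.8%) while 1 rose. Of 11 complex I genes outside the rule, 5 rose in Hepa1, and 4 rose and 2 fell in MEFs. For complex III the counts were 2 of 7 rising in Hepa1 (28.6%, beside 29.3% of all genes) and 3 falling in MEFs (42.9%, beside 27.2% of all genes), and for complex V 4 of 5 rising in Hepa1 and 1 falling in MEFs. Of the mitochondrial carriers and porins, 4 rose and 1 fell of 9 tested in Hepa1, and 4 rose and 1 fell of 10 in MEFs. All these counts stand beside 29.3% of all genes rising and 28.8% falling in Hepa1, and 27.8% and 27.2% in MEFs. The lists are too short to be set apart from those shares by counts alone.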
